A study of Homo sapiens with 61 samples.

Results

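ARID5A, its paralog ARID5B and ZC3H12A (the gene of the RNase Regnase-1) are 3 of the 58440 genes counted in each of 2 experiments on human neurons. ARID5A was chosen because it was among the genes with the highest fold change under vincristine in both experiments. ARID5B was added as its paralog and ZC3H12A as a gene of opposing function, so the size of the ARID5A change in the control lines is a description here and is given no test. Genes with low counts were filtered out before testing: 2 of the 3 genes remained in experiment 1 and 3 in experiment 2.

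The RNA came from neurons that the transcription factor NGN2 makes from WTC11 cells, a widely used human iPSC line. The neurons received 5 nM vincristine, which blocks microtubule assembly, or the solvent DMSO (called untreated) for 16 hours. Treatment was at day 14 of differentiation by the series' design text, and after 10 to 14 days by the samples' protocol. Experiment 1 held 4 untreated and 4 vincristine libraries each of unmodified cells (WT), DLK KO, LZK KO and the DLK LZK double KO (double KO). DLK (gene MAP3K12) and LZK (gene MAP3K13) are kinases that signal neuronal injury to JNK. Experiment 2 used neurons for CRISPR interference, in which a guide RNA (gRNA) directs a repressor to a promoter. It held 5 untreated and 5 vincristine libraries with Control gRNA, 5 and 5 with JUN gRNA, and 5 untreated and 4 vincristine libraries with ATF2 gRNA. JUN and ATF2 are AP-1 family transcription factors that JNK phosphorylates. Whether a knockout line is 1 clone, and whether replicates are separate cultures, is not given in the sources used here, so p-values measure only the spread between these libraries.

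Total counts (in units of 1 M) ran from 8.41 to 14.6 per library in experiment 1 and from 38.9 to 88.4 in experiment 2, and levels are compared within an experiment only. The targeted mRNAs were reduced in the untreated libraries: MAP3K12 to 28.9% of WT in DLK KO and 21.7% in double KO, MAP3K13 to 32.3% in LZK KO and 29.9% in double KO, ATF2 to 0.409% and JUN to 3.24% of Control gRNA. Summed over 8 neuronal markers, levels were 4346 to 6944 CPM (counts per 1 M counts of the library, scaled by TMM factors) in experiment 1 and 4424 to 5920 CPM in experiment 2. Untreated libraries held 4346 to 4981 CPM in DLK KO, 5724 to 6177 CPM in LZK KO and 6486 to 6558 CPM in double KO. Untreated WT held 6247 to 6652 CPM, overlapping only with double KO. In each line of experiment 2 the sum was lower with vincristine, without overlap (5580 to 5920 and 4566 to 4814 CPM in Control gRNA). The part of these differences in the results below was not tested. Summed over 4 markers of immune cells, the cell type in which ARID5A and ZC3H12A are best known, levels were 0 to 1.68 CPM in experiment 1 and 0 to 0.845 CPM in experiment 2.

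ARID5A and ARID5B are proteins with an AT-rich interaction domain, a DNA-binding fold found in chromatin regulators. ARID5A also binds stem-loops in inflammatory mRNAs such as IL6 and protects them from decay, while Regnase-1 cleaves such mRNAs, so that the pair set how long a transcript persists in macrophages and T cells. ARID5B works with the demethylase PHF2 on chromatin and is known for roles in fat metabolism, mesenchymal development and blood cells.

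ARID5A (ENSG00000196843.15) spans chromosome 2, 96536743 to 96552638, on the plus strand of GRCh38, with 3565 exon bases counted. ARID5B (ENSG00000150347.15) spans chromosome 10, 61901300 to 62096944, plus strand, with 9144 exon bases. ZC3H12A (ENSG00000163874.10) spans chromosome 1, 37474552 to 37484379, plus strand, with 3121 exon bases. No annotated gene overlaps ARID5A or ARID5B, and MIR6732 lies within ZC3H12A.

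The RefSeq promoter windows of ARID5A (250 bases before to 50 after each of its annotated starts) and the first of ARID5B are shown because JUN and ATF2, whose guides are compared below, bind short DNA elements. RefSeq windows on GRCh38.p14 matched all 3 genes. Each is printed 5′ to 3′ on the plus strand, in lower case, with matches in capitals to any of 4 motifs searched on both strands. The motifs are the AP-1 element TGANTCA, the cAMP response element TGACGTCA, its short form TGACG (contained in the full element) and the C/EBP-ATF response element TGATGNAA.
ARID5A, first start, chr2:96536502-96536801: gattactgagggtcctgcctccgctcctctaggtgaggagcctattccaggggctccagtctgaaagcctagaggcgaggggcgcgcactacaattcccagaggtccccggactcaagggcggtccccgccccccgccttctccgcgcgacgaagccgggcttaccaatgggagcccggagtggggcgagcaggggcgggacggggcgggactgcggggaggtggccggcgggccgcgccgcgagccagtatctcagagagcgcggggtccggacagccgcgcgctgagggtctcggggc
ARID5A, second start, chr2:96537629-96537928: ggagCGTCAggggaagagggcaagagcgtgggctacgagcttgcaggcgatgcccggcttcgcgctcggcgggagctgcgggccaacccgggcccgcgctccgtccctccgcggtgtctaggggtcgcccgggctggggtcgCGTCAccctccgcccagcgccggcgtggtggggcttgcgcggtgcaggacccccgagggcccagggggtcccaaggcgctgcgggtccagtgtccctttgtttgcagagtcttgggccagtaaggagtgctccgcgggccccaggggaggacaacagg
ARID5B, first start, chr10:61901449-61901748: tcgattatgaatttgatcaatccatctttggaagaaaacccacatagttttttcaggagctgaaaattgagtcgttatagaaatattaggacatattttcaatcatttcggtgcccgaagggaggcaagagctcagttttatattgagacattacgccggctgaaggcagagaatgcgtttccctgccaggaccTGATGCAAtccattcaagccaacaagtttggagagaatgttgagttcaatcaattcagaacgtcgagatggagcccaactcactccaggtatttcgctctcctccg
The second ARID5A window held 2 short forms TGACG, both on the minus strand, whose first plus-strand bases lie 246 and 108 bases before the start. The first ARID5A window held no match to the 4 motifs. The ARID5B window held 1 TGATGNAA, 56 bases before the start. Of 35116 promoter windows of this length, 24.6% held TGACG, 3.62% TGATGNAA, 7.71% TGANTCA and 1.85% TGACGTCA; a match describes these letters only. The ARID5A windows are rich in G and C (71.7% and 73.3%), against 43.0% in the ARID5B window. A second ARID5B window, not printed, is at 57.3% and held no match. The ZC3H12A window, also not printed, is at 79.0%. It held 1 TGACG on the minus strand, whose first plus-strand base lies 66 bases before the start. The second ARID5A window and both ARID5B windows lie within the gene spans given above.

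ARID5A was close to silent in untreated WT neurons and abundant after vincristine. In untreated WT it stood at 3.53, 1.49, 2.03 and 1.38 CPM in replicates 1 to 4, which are 14 to 37 counts. With vincristine it stood at 80.1, 77.9, 68.5 and 41.4 CPM. The groups were far apart, and replicate 4 was the lowest of the treated libraries. The mean went from 2.11 ± 0.990 (SD, n = 4) to 67.0 ± 17.8 CPM, a log2 fold change of 4.99 ± 0.21 (SE), or 31.7-fold. Among genes called in WT (adjusted p under 0.05) with a mean log2 CPM of at least 1, this was the second highest fold change, below SLC7A11 (5.11), a cystine transporter, and above TNFRSF12A (4.53), a TNF receptor family member. In bulk RNA, a change in the share of cells and a change in RNA per cell cannot be told apart.

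ARID5A was likewise low in untreated Control gRNA neurons and high with vincristine. Untreated libraries stood at 1.68, 1.96, 2.09, 1.73 and 1.61 CPM and vincristine libraries at 39.8, 49.3, 43.5, 45.1 and 37.1 CPM. The log2 fold change was 4.56 ± 0.19, or 23.6-fold, again the second highest, here below ABCB1 (6.05), a drug efflux pump of which vincristine is a known substrate. In WT, 30.2% of the genes tested were called, 15.7% higher and 14.5% lower, and in Control gRNA 35.3%, 17.1% higher and 18.1% lower. These shares are printed as background, since ARID5A was chosen on both contrasts.

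**Figure D1:**
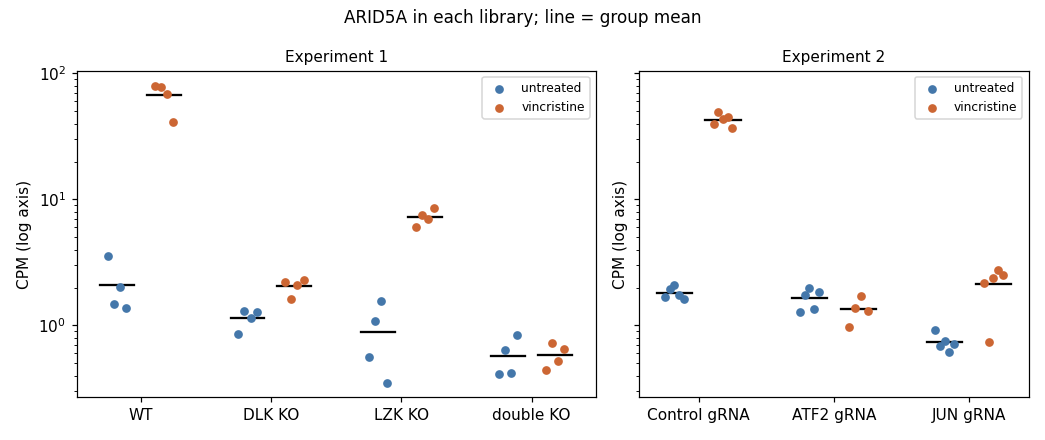
ARID5A level (CPM, log axis) in every library of the 7 lines, untreated (blue) and with vincristine (orange), with a line at the group mean. WT and Control gRNA with vincristine sit at 37.1 to 80.1 CPM, LZK KO with vincristine at 6.08 to 8.57 CPM, and all other groups below 4 CPM.

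In both kinase knockouts ARID5A stood far lower under vincristine than in WT, and lower in DLK KO than in LZK KO. In DLK KO, ARID5A went from 0.859, 1.29, 1.15 and 1.29 CPM untreated to 2.23, 1.62, 2.09 and 2.28 CPM. The 2 groups did not overlap, but the change of 0.83 ± 0.35 on the log2 scale did not pass the test over all genes (adjusted p = 0.142, 6.53% of genes called). It passed when only those 2 groups were fitted (0.84, adjusted p = 0.0267).

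In LZK KO, ARID5A went from 0.567, 1.08, 1.57 and 0.352 CPM to 6.08, 7.47, 6.94 and 8.57 CPM. It rose by 2.95 ± 0.31 on the log2 scale, or 7.72-fold (adjusted p = 2.92e-08, in a comparison with 3.88% of genes called), and had rank 3 among called genes of that level, next after SLC7A11 (3.32). In double KO it stood at 0.415, 0.640, 0.418 and 0.836 CPM untreated and at 0.440, 0.724, 0.518 and 0.655 CPM with vincristine. These are 4 to 10 counts per library, and the groups overlap fully. The change was 0.04 ± 0.51 (adjusted p = 0.992, 0.0658% of genes called), with a 95% interval of -0.96 to 1.04.

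Set beside the vincristine level in WT, ARID5A reached 10.8% in LZK KO, 3.07% in DLK KO and 0.873% in double KO. The effect differed from that in WT by -2.04 ± 0.47 in LZK KO, -4.15 ± 0.47 in DLK KO and -4.94 ± 0.63 in double KO, on the log2 scale. These differences contain the contrast ARID5A was chosen on and have no test here, while 12.4%, 19.4% and 19.4% of all genes were called for them. Between the modified lines, the effect was smaller in double KO than in LZK KO by 2.91 ± 0.64 (adjusted p = 0.0132, 0.916% of genes called). That call was lost without untreated double KO replicate 2 or 4 (-2.85 and -2.69, adjusted p = 0.0526 and 0.0849).

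The difference between double KO and DLK KO, -0.79 ± 0.63, did not pass (adjusted p = 0.517, 1.14% of genes called) and its interval ran from -2.02 to 0.44. The difference between DLK KO and LZK KO, a comparison added after the values were seen, was -2.11 ± 0.50. It missed the threshold (adjusted p = 0.119, with 0.0658% of genes called) and did so in 18 of 23 alternatives. It passed with DESeq2 (adjusted p = 0.00425), with limma voom (0.0106) and without the filter on low counts (7.22e-05). It also passed with only the 4 groups compared (0.0426) and without untreated LZK KO replicate 3 (0.0488). The main fit called 12 genes here, against 45 with DESeq2, 190 with voom, 42 without the filter and 20 with only these groups. JUN mRNA stood at 226 ± 15.9 CPM in DLK KO with vincristine, at 279.6 ± 14.6 CPM in LZK KO, at 45.9 ± 1.16 CPM in double KO and at 505 ± 149.5 CPM in WT. Untreated, JUN mRNA stood at 55.1 ± 5.32, 115.8 ± 13.3, 39.5 ± 2.58 and 139.5 ± 8.1 CPM in the same order of lines. ATF2 mRNA in untreated neurons was 70.8 ± 5.91 CPM in DLK KO, 164 ± 30.9 CPM in LZK KO, 147.8 ± 6.21 CPM in double KO and 140.4 ± 14.1 CPM in WT. The part of JUN and ATF2 levels in the ARID5A differences was not tested.

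Lower ARID5A levels were also present without the drug. Against untreated WT, ARID5A was lower by 1.84 ± 0.39 on the log2 scale in double KO (adjusted p = 0.000193), with every double KO library below every WT library. Among all genes, 45.7% were called in this comparison, so a call on its own says little here. In LZK KO it was lower by 1.17 ± 0.37 (adjusted p = 0.0134, 33.9% of genes called), and in DLK KO by 0.88 ± 0.35 (adjusted p = 0.0471, 34.5% called).

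Both single knockout calls rest on few counts. The DLK KO call was lost without WT replicate 1, the highest untreated library (-0.53, adjusted p = 0.261), without WT replicate 3 (-0.89, 0.0736), and without any 1 of the 4 DLK KO libraries (-0.75 to -0.93, adjusted p from 0.0635 to 0.132). The LZK KO call was lost without WT replicate 1 (-0.85, adjusted p = 0.0816) and without LZK KO replicate 1 (-1.01, 0.0523) or 4 (-0.93, 0.0586).

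With ATF2 or JUN reduced, ARID5A was also low under vincristine, and the effect differed between the guides. With ATF2 gRNA, the untreated libraries held 1.27, 1.75, 1.98, 1.35 and 1.84 CPM, and the 4 vincristine libraries (replicates 2 to 5) 0.978, 1.39, 1.71 and 1.29 CPM. No vincristine library exceeded the highest untreated one. The change of -0.29 ± 0.22 did not pass the test (adjusted p = 0.559, 6.10% of genes called), with an interval of -0.73 to 0.15.

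With JUN gRNA, ARID5A went from 0.925, 0.682, 0.750, 0.611 and 0.715 CPM to 2.18, 0.739, 2.39, 2.77 and 2.53 CPM. Vincristine replicate 2 stayed at the untreated level while the other 4 libraries lay above all untreated ones. ARID5A rose by 1.52 ± 0.21, or 2.87-fold (adjusted p = 8.44e-07, 15.9% of genes called), and by 1.74 without that replicate (adjusted p = 5.09e-12). It ranked 39 among called genes of that level, against 2 in Control gRNA.

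Relative to Control gRNA with vincristine, ARID5A stood at 3.12% with ATF2 gRNA and 4.94% with JUN gRNA. The effect differed from that in Control gRNA by -4.85 ± 0.29 with ATF2 gRNA and by -3.04 ± 0.28 with JUN gRNA, which are descriptions for the reason given above (20.6% and 15.8% of all genes were called). The effect with ATF2 gRNA was below that with JUN gRNA by 1.81 ± 0.31 (adjusted p = 0.000188), in a comparison with 2.83% of genes called. It was -2.03 without JUN gRNA vincristine replicate 2 (adjusted p = 8.89e-09).

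The untreated levels differed the other way. With JUN gRNA, untreated ARID5A was lower than with Control gRNA by 1.30 ± 0.22 (adjusted p = 3.55e-05, 11.2% of genes called), and the libraries of these groups did not overlap. With ATF2 gRNA the difference was -0.15 ± 0.20 (adjusted p = 0.618, 39.9% called), with an interval of -0.54 to 0.24. ATF2 gRNA was above JUN gRNA by 1.15 ± 0.22 (adjusted p = 4.37e-05, 34.8% called). The lower effect with ATF2 gRNA thus starts from a higher untreated level than that of JUN gRNA, and the vincristine means themselves were 1.34 ± 0.300 (n = 4) and 2.12 ± 0.802 CPM (n = 5). JUN mRNA was low with both guides under vincristine, at 20.5 ± 3.08 CPM with ATF2 gRNA and 6.43 ± 1.31 CPM with JUN gRNA, against 237 ± 12.9 CPM with Control gRNA. ATF2 mRNA with JUN gRNA was 138.5 ± 19.1 CPM under vincristine.

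**Figure D2:**
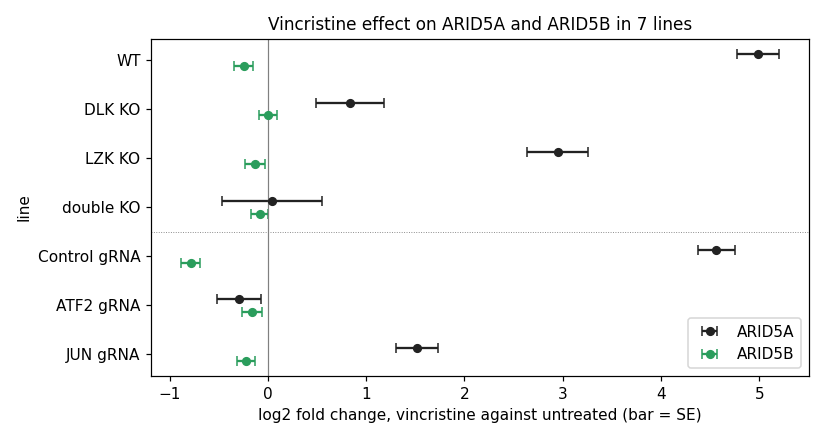
Log2 fold change of vincristine against untreated (x axis) for ARID5A (black) and ARID5B (green) in each of the 7 lines (y axis), with bars of 1 SE. ARID5A lies at 4.99 in WT and 4.56 in Control gRNA, at 2.95 in LZK KO and 1.52 in JUN gRNA, and under 1 elsewhere, while ARID5B lies between -0.79 and 0.00.

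In order of level in experiment 1, ARID5A was highest in WT with vincristine (67.0 CPM), then in LZK KO with vincristine (7.26 ± 1.04), and neither overlapped its neighbour. WT untreated (2.11) and DLK KO with vincristine (2.05 ± 0.302) overlapped. DLK KO untreated (1.15 ± 0.204), LZK KO untreated (0.892 ± 0.545) and both double KO groups (0.585 ± 0.129 with vincristine and 0.577 ± 0.202 untreated) each overlapped the next. In experiment 2, Control gRNA with vincristine (43.0 ± 4.70 CPM) stood alone at the top. JUN gRNA with vincristine, Control gRNA untreated (1.81 ± 0.200), ATF2 gRNA untreated (1.64 ± 0.310) and ATF2 gRNA with vincristine each overlapped the next. JUN gRNA untreated (0.737 ± 0.117) was lowest and lay apart from ATF2 gRNA with vincristine, while vincristine replicate 2 of JUN gRNA (0.739 CPM) lay within its range.

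Markers of other cell types were summed in the same libraries. Summed over 4 glial markers (GFAP, AQP4, SOX10, OLIG2), libraries held 1.91 to 3.92 CPM in Control gRNA with vincristine against 0.212 to 0.997 CPM untreated, and 1.18 to 2.63 against 0.477 to 1.76 CPM in WT. Most of the difference was in OLIG2, which also marks neural progenitors and had means of 0.585 CPM untreated and 2.79 CPM with vincristine in Control gRNA, and 0.183 and 0.966 CPM in WT. GFAP went the other way in WT, with means of 0.692 and 0.139 CPM, and was at 0 in all untreated Control gRNA libraries. Summed over 4 markers of dividing progenitors (MKI67, TOP2A, SOX2, PAX6), libraries held 20.9 to 23.2 CPM untreated and 31.5 to 34.6 CPM with vincristine in Control gRNA, without overlap, and 28.8 to 31.9 and 27.5 to 34.4 CPM in WT, with overlap. SOX2 made up most of this sum, with means of 14.5 and 22.2 CPM in Control gRNA and 22.3 and 20.4 CPM in WT. The immune markers held 0 to 0.291 CPM untreated and 0.102 to 0.521 CPM with vincristine in Control gRNA, and 0.0954 to 1.68 and 0.359 to 0.867 CPM in WT. The part of these markers in the ARID5A result was not tested.

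ARID5B changed in the opposite direction to its paralog in Control gRNA. It fell with vincristine, from 12.2, 13.1, 12.6, 12.1 and 11.1 CPM to 7.25, 7.64, 7.26, 7.96 and 5.04 CPM. The groups were apart, replicate 5 of the vincristine group being the lowest. The log2 fold change was -0.79 ± 0.10 (adjusted p = 3.03e-09), and -0.70 without that replicate (adjusted p = 1.42e-08), in a comparison with 18.1% of genes called lower.

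In WT, ARID5B went from 29.5, 29.3, 30.4 and 34.9 CPM to 22.1, 28.5, 28.6 and 25.3 CPM, also with no overlap. The change of -0.24 ± 0.10 lay just outside the threshold (adjusted p = 0.0510). It passed in 5 of 15 alternatives. These were RLE factors (adjusted p = 0.0483), DESeq2 (0.0397), the replicate block (0.0478) and fits without vincristine replicate 2 (-0.28, 0.0435) or 3 (-0.29, 0.0447). The change did not pass in the other 10. Among these were the fits without vincristine replicate 1 (-0.17, adjusted p = 0.214) or untreated replicate 4 (-0.19, 0.182). With only the 2 WT groups it was -0.26 (adjusted p = 0.122). The difference between the effects in WT and Control gRNA was not tested, since they belong to separate experiments.

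With ATF2 or JUN reduced, the fall of ARID5B under vincristine was smaller than with Control gRNA. ATF2 gRNA libraries held 13.6, 16.0, 14.3, 15.3 and 12.6 CPM untreated and 13.1, 13.4, 11.7 and 13.1 CPM with vincristine, a change of -0.16 ± 0.10 (adjusted p = 0.416). JUN gRNA libraries held 17.0, 16.4, 15.6, 16.1 and 16.6 CPM untreated and 13.5, 13.0, 12.9, 14.5 and 16.2 CPM with vincristine, a change of -0.22 ± 0.09 (adjusted p = 0.108). The difference from Control gRNA passed the test for both, by 0.62 ± 0.14 for ATF2 gRNA (adjusted p = 0.00056, 20.6% of genes called) and by 0.57 ± 0.13 for JUN gRNA (adjusted p = 0.00148, 15.8% called). It also passed without Control gRNA vincristine replicate 5 (0.53 and 0.48, adjusted p = 0.00108 and 0.00333). The 2 guides differed from each other by 0.06 ± 0.14 (adjusted p = 0.929), with an interval of -0.21 to 0.32. The JUN gRNA change passed with limma voom (-0.28, adjusted p = 0.00187) and without JUN gRNA vincristine replicate 5 (-0.28, adjusted p = 0.0397).

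The level of ARID5B under vincristine was 7.03 ± 1.15 CPM with Control gRNA, 12.8 ± 0.777 CPM with ATF2 gRNA (182% of that) and 14.0 ± 1.38 CPM with JUN gRNA (199.7% of it). ARID5B was already higher in untreated neurons, by 0.42 ± 0.09 with JUN gRNA (adjusted p = 0.00124, 11.2% of genes called) and by 0.24 ± 0.09 with ATF2 gRNA (adjusted p = 0.0394, 39.9% called). The guides did not differ detectably in this (-0.18 ± 0.09, adjusted p = 0.125; limma voom called it, at -0.17 and adjusted p = 0.0302). The ATF2 gRNA call was lost in 6 of 10 fits that left out 1 untreated library: Control gRNA replicate 1, 4 or 5 (0.24, 0.23 and 0.20) or ATF2 gRNA replicate 2, 3 or 4 (0.19, 0.24 and 0.21), with adjusted p from 0.0587 to 0.124. Summed over 3 mesenchymal markers, untreated libraries held 5.81 to 7.48 CPM with ATF2 gRNA, 1.62 to 2.12 CPM with Control gRNA and 0.393 to 0.993 CPM with JUN gRNA, so this sum was highest with ATF2 gRNA and lowest with JUN gRNA while ARID5B was higher with both. The excess with ATF2 gRNA was mostly PDGFRB (4.83 CPM, against 0.292 CPM with Control gRNA), while COL1A1 stood at 0.226 and 0.979 CPM. Summed over 4 markers of pluripotent cells (POU5F1, NANOG, LIN28A, DPPA4), untreated libraries held 33.8 to 40.1 CPM with ATF2 gRNA, 17.3 to 19.1 CPM with JUN gRNA and 9.58 to 13.5 CPM with Control gRNA, with NANOG at 0 in all untreated libraries of both targeting guides. This sum, like ARID5B, was higher with both guides. It was made up by LIN28A (15.9, 9.04 and 4.05 CPM with ATF2, JUN and Control gRNA) and DPPA4 (19.6, 9.00 and 7.23 CPM), with POU5F1 at 0.353 to 0.396 CPM. The part of either sum in the ARID5B result was not tested.

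**Figure D3:**
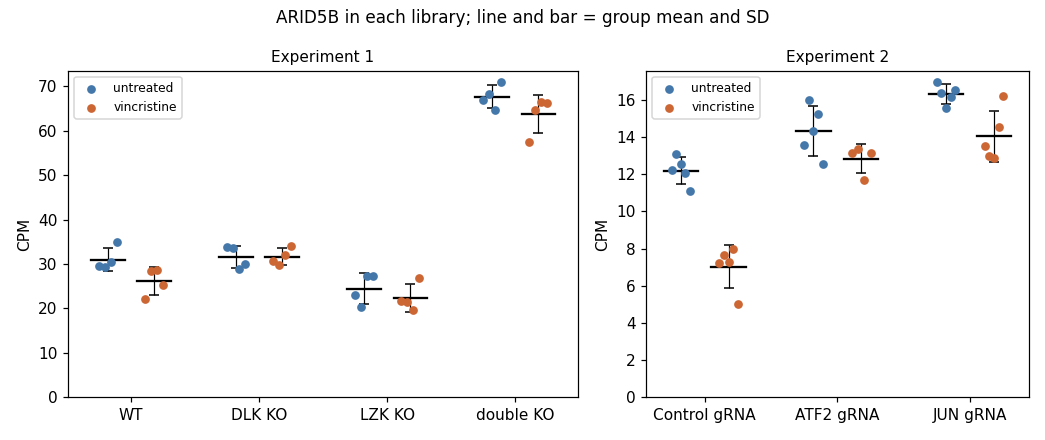
ARID5B level (CPM, linear axis from 0) in every library, untreated (blue) and with vincristine (orange), with group mean and SD; the scales of the experiments differ. Double KO libraries sit at 57.5 to 70.9 CPM, above all others of experiment 1, and Control gRNA with vincristine at 5.04 to 7.96 CPM, below all others of experiment 2.

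In experiment 1 the main feature of ARID5B was a level in double KO that neither single knockout showed. Untreated double KO libraries held 66.9, 68.2, 64.7 and 70.9 CPM and those with vincristine 57.5, 64.7, 66.5 and 66.3 CPM. Against WT, untreated ARID5B was higher by 1.12 ± 0.09, or 2.18-fold (adjusted p = 7.36e-13, 45.7% of genes called). In DLK KO (31.6 ± 2.48 CPM) the difference was 0.03 ± 0.09 (adjusted p = 0.868, 34.5% called). In LZK KO (24.4 ± 3.45 CPM) ARID5B was lower, by 0.34 ± 0.10 (adjusted p = 0.00598, 33.9% called). The level in double KO was thus on the other side of WT from that in LZK KO.

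Of the markers of other cell types, LIN28A was high in the same line. The sum of the 4 pluripotent markers was 52.8 to 58.9 CPM in untreated double KO and 54.0 to 62.0 CPM with vincristine, against 2.59 to 3.34 CPM in untreated WT, 10.3 to 14.2 CPM in DLK KO and 13.2 to 18.7 CPM in LZK KO. LIN28A made up 53.3 CPM of it in untreated double KO and 1.88 CPM in WT, while POU5F1 (0.669 and 0.291 CPM), NANOG (0.117 and 0.221 CPM) and DPPA4 (1.13 and 0.555 CPM) stayed low in both. Neuronal markers summed to 6486 to 6558 CPM in untreated double KO and 6247 to 6652 CPM in WT, and mesenchymal markers to 1.56 to 2.32 CPM and 0.668 to 3.06 CPM. The 4 markers of dividing progenitors summed to 67.45 to 81.64 CPM in untreated LZK KO and 28.7 to 34.1 CPM in double KO. They summed to 19.4 to 20.6 CPM in untreated DLK KO and 28.8 to 31.9 CPM in WT. MKI67 (33.1 and 4.81 CPM) and TOP2A (20.9 and 1.52 CPM) were higher in untreated LZK KO than in WT, while SOX2 (16.4 and 22.3 CPM) was lower. In untreated double KO, MKI67 stood at 15.5 CPM. The part of these markers in the ARID5A and ARID5B results was not tested.

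Vincristine did not change ARID5B past the threshold in DLK KO (0.00 ± 0.09, adjusted p = 0.997), LZK KO (-0.13 ± 0.10, 0.568) or double KO (-0.08 ± 0.09, 0.860). No difference in effect between lines of experiment 1 passed for ARID5B, the 3 against WT lying between 0.11 and 0.25. Of the genes within 1 Mb of ARID5B, 4 were tested in experiment 1. Between untreated double KO and WT they ranged from -2.48 (ZNF365) to 0.90 (RHOBTB1), with a median of 0.04, and 2 of them were called, against 45.7% of all genes in that comparison.

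Per kilobase of exon, ARID5A passed its paralog under vincristine in both control lines. In untreated WT the ratio of ARID5A to ARID5B in CPM per kilobase was 0.102 to 0.307 over the 4 libraries, and with vincristine 4.20 to 9.29. In Control gRNA it went from 0.353 to 0.426 untreated to 14.1 to 18.9. In the modified lines with vincristine it stayed below ARID5B in every library: at 0.724 to 0.909 in LZK KO with vincristine, at 0.146 to 0.488 in JUN gRNA, at 0.191 to 0.375 in ATF2 gRNA, at 0.140 to 0.187 in DLK KO and at 0.0197 to 0.0287 in double KO.

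ZC3H12A was at the edge of detection in all groups. In experiment 1 it had 0 to 6 counts per library, with 28 of 32 libraries at 3 counts or fewer and 7 at 0, and the filter on low counts removed it. In WT with vincristine it had 18 counts over 4 libraries, against 7 untreated. A count of 0 allows up to 0.205 to 0.357 CPM at these depths (3 counts, counting error only), so most levels there were not distinguishable from 0. Without the filter, edgeR called 0 of 13 comparisons for it, 1 being at an unadjusted p under 0.05. The effect in WT was then 1.42 ± 0.79 (adjusted p = 0.326), and the lowest unadjusted p, 0.0333, belonged to double KO minus WT (-2.74 ± 1.29, adjusted p = 0.22).

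In experiment 2, with deeper libraries, ZC3H12A had 0 to 53 counts, with 6 of 29 libraries at 3 counts or fewer. Control gRNA libraries held 11, 0, 15, 36 and 8 counts untreated and 35, 53, 46, 33 and 10 with vincristine, or 0.275 ± 0.296 and 0.561 ± 0.252 CPM. ATF2 gRNA libraries held 52, 8, 8, 11 and 0 counts untreated and 0, 0, 24 and 15 with vincristine. JUN gRNA libraries held 15, 17, 23, 12 and 23 counts untreated and 4, 22, 14, 0 and 1 with vincristine. In each line the vincristine and untreated libraries overlapped.

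Of the 9 comparisons of experiment 2, 0 passed the test for ZC3H12A with edgeR. None was at an unadjusted p under 0.05, the lowest being 0.124. The effect was 1.02 ± 0.95 in Control gRNA (adjusted p = 0.466), with a 95% interval of -0.84 to 2.89. It was -0.54 ± 1.04 in ATF2 gRNA and -1.12 ± 0.98 in JUN gRNA. With limma voom and sample weights, the Control gRNA effect (1.53, adjusted p = 0.0365) and its difference from JUN gRNA (-3.19, adjusted p = 0.0276) passed. The Control gRNA interval lies below the 4.56 of ARID5A, a gene chosen for its high fold change. It still includes rises of up to 2.89.

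**Figure D4:**
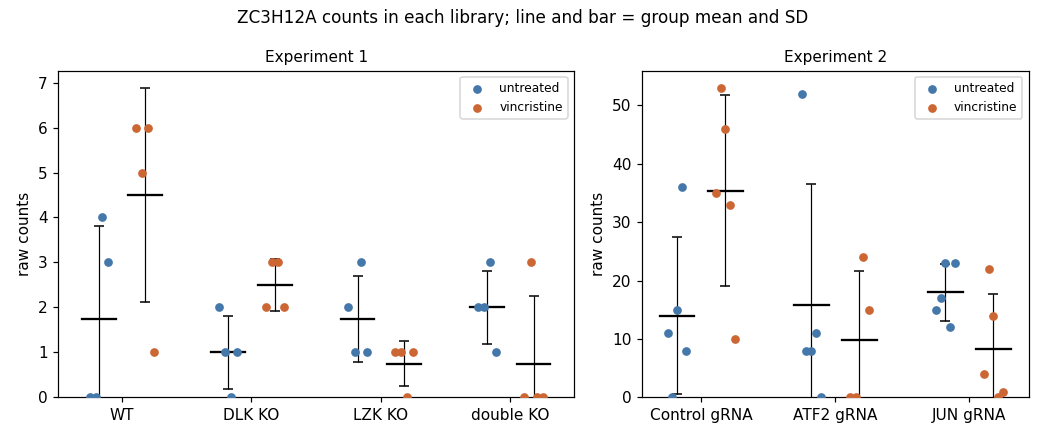
Raw counts of ZC3H12A (linear axis from 0) in every library, untreated (blue) and with vincristine (orange), with group mean and SD. Experiment 1 stays at 0 to 6 counts and experiment 2 at 0 to 53 counts, with libraries at 0 in 4 of its 6 groups.

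The genes around these 3 in stem-loop mRNA decay were compared as lists, each read against the shares of all genes called in WT (30.2%) and Control gRNA (35.3%). Of 10 genes of the Regnase family and stem-loop decay, 8 were tested in WT and 3 were called, all higher, and of 10 tested in Control gRNA 3 were called, all higher. These counts are near the shares of all genes. Called in 1 line only were RC3H1 in WT (0.14 ± 0.05, adjusted p = 0.031) and MALT1 in Control gRNA (0.35 ± 0.07, 2.14e-05), named after their values were seen. The RC3H1 call was lost in 8 of 15 alternatives. The median log2 fold changes were 0.11 and 0.13, against 0.00 and 0.03 over all genes. ZC3H12C, a Regnase paralog, rose in both (0.82 ± 0.07 and 0.61 ± 0.06, adjusted p = 1.02e-11 and 4.14e-11), from 47.1 to 83.2 CPM in WT. N4BP1, a related endonuclease that acts on RNA in innate immunity, rose by 0.26 ± 0.06 and 0.17 ± 0.05. In LZK KO ZC3H12C rose by 0.34 (adjusted p = 0.00299), and in double KO it stood at -0.06 (adjusted p = 0.888). With JUN and ATF2 gRNA ZC3H12C stood at 0.103 and -0.085 (adjusted p = 0.332 and 0.574). N4BP1 stood at -0.100 in LZK KO and -0.096 in double KO (adjusted p = 0.463 and 0.802). With JUN gRNA N4BP1 rose by 0.156 (adjusted p = 0.0107), and with ATF2 gRNA it stood at 0.150, not called.

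Most mRNAs reported to be stabilised by ARID5A had too few counts to be tested. Of 11, 3 passed the filter in experiment 1 and 4 in experiment 2, and 5 stayed under 10 counts in every library of the series. IL6, the target for which ARID5A is known, had at most 3 counts in any library of experiment 1 and 0 counts in all 29 libraries of experiment 2. CEBPB, a transcription factor gene, rose by 3.01 ± 0.19 in WT (5.31 to 42.7 CPM, adjusted p = 2.08e-14) and by 2.51 ± 0.20 in Control gRNA (adjusted p = 7.04e-12). It rose by 1.14 in LZK KO (adjusted p = 0.00718), by 1.03 in JUN gRNA (0.000195) and by 0.74 in ATF2 gRNA (0.0172), where ARID5A stood at -0.29. It did not pass in DLK KO (0.77, adjusted p = 0.0591) or double KO (-0.24, 0.872).

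NFKBIZ, a nuclear regulator of inflammatory genes reported as a target of both ARID5A and Regnase-1, rose by 0.70 ± 0.18 in WT (adjusted p = 0.0023) and 0.64 ± 0.26 in Control gRNA (0.0485), with levels of 5.76 and 1.99 CPM under vincristine. Its call in Control gRNA was lost in 8 of 17 alternatives: without a filter, and without untreated replicate 3, 4 or 5 or vincristine replicate 1, 2, 3 or 4. In WT it was kept in all 15. STAT3, which transmits IL-6 signals, fell by 0.53 ± 0.09 and 0.63 ± 0.04. The tested genes of this list thus moved in both directions, with 2 called higher and 1 lower in each line.

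Of 14 mRNAs reported as cleaved by Regnase-1, 5 were tested in each experiment, and 8 stayed under 10 counts in every library. In WT 1 was called higher and 1 lower, and in Control gRNA 1 higher and 2 lower. Those called in both were NFKBIZ and TFRC, the transferrin receptor, which fell by 0.71 ± 0.10 and 0.78 ± 0.06. The further one in Control gRNA was PTGS2 (-2.76 ± 1.02, adjusted p = 0.03), named after its values were seen, with at most 18 counts in an untreated and 4 in a vincristine library. The PTGS2 call was lost in 7 of 15 alternatives: without a filter, and without untreated replicate 1 or 2 or vincristine replicate 1, 2, 4 or 5. Without a filter, 1 gene of this list was called in Control gRNA, and 1 without vincristine replicate 1, 2 or 4.

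Other proteins that act on AU-rich mRNA elements were counted in the same way. Of 11, 9 were tested in WT, with 1 called higher and 2 lower, near the 30.2% of all genes called. In Control gRNA 11 were tested, with 1 called higher and 6 lower, against 35.3% of all genes called and 18.1% called lower. Without a filter, 4 were called in Control gRNA, nearer the share of all genes. The medians were -0.14 and -0.12, against 0.00 and 0.03 over all genes. ELAVL4, a neuronal RNA-binding protein that stabilises mRNA, fell by 0.37 ± 0.08 and 0.26 ± 0.04, and HNRNPD, which promotes decay, fell by 0.31 ± 0.06 and 0.19 ± 0.04.

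Of the 14 ARID family genes, 13 were tested in WT (2 higher, 4 lower) and 14 in Control gRNA (2 higher, 5 lower). Among all genes, 30.2% were called in WT and 35.3% in Control gRNA. These counts include ARID5A among those higher in both lines. It was chosen on these contrasts, so its calls are not read here. ARID5B is among those lower in Control gRNA. The medians were 0.04 and -0.02. Of the other genes, ARID3A (-0.44 ± 0.13 and -0.43 ± 0.05) and JARID2, a Polycomb partner (-0.27 ± 0.10 and -0.39 ± 0.05), were called lower in both. ARID4B (0.17 ± 0.06 and 0.26 ± 0.10) was called higher in both. Of the 15 alternatives in WT, 5 lost the ARID4B call, 7 the JARID2 call and 1 the ARID3A call, and of the 17 in Control gRNA, 7 lost that of ARID4B. In WT, 1 gene was called when only the 2 WT groups were fitted, and 3 without untreated replicate 1 or 3.

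Of 17 genes of NF-kB, IL-1, IL-6 and IL-17 signalling, which drive ARID5A in immune cells, 14 were tested in WT (1 higher, 2 lower) and 16 in Control gRNA (4 higher, 2 lower). In WT, 1 gene was called with only the WT groups and 1 without untreated replicate 2 or 4 or vincristine replicate 4. Called in both were the receptor gene IL17RA (-0.50 ± 0.17 and -0.39 ± 0.08), NFKB1 (-0.35 ± 0.12 and -0.47 ± 0.14) and the adaptor gene TRAF6 (0.24 ± 0.08 and 0.23 ± 0.07). In WT, 7 of 15 alternatives lost the IL17RA call, 7 the TRAF6 call and 3 the NFKB1 call, and in Control gRNA 1 of 17 lost that of TRAF6. One of the 4 called higher in Control gRNA was the receptor gene IL6R, named after its values were seen. It was at most at 1 count in an untreated library and at most at 29 counts with vincristine (0.249 ± 0.105 CPM), and it passed the filter on low counts through that group, so its call is not read here. Of 3 nuclear partners of the ARID5 proteins, 2 were tested in each line: SOX9 was called higher in WT, and PHF2, the demethylase that acts with ARID5B, lower in Control gRNA (-0.11 ± 0.04, adjusted p = 0.0485). The PHF2 call was lost in 14 of 17 alternatives: with RLE factors, without a filter, with the filter at 1 CPM, with DESeq2, with only the 2 groups, with the replicate block and without any 1 of 8 libraries (untreated replicate 1, 3, 4 or 5 or vincristine replicate 1, 2, 3 or 4).

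**Figure D5:**
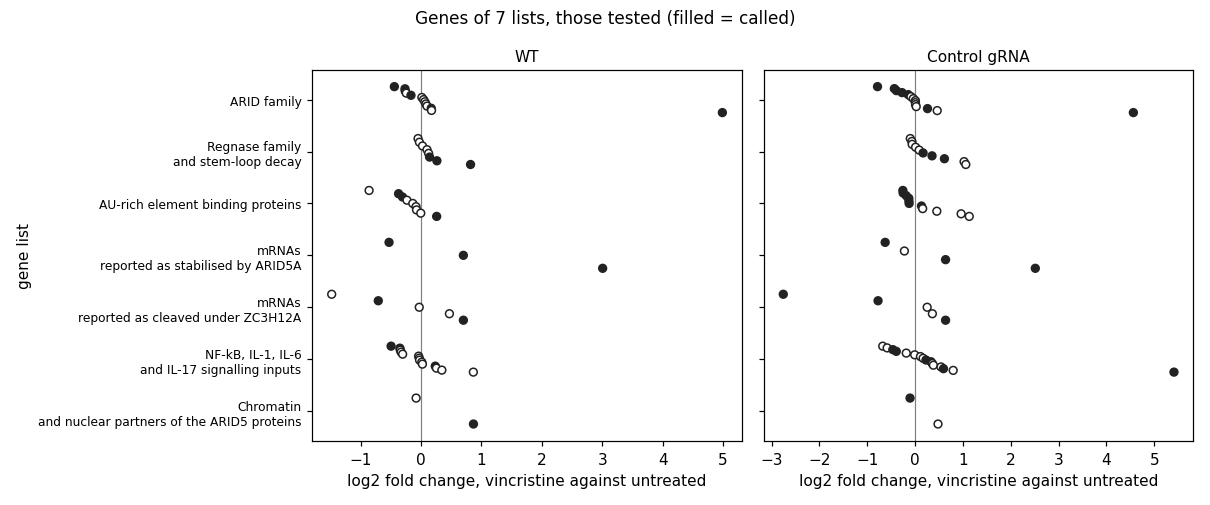
Log2 fold change of vincristine against untreated (x axis) of the tested genes of 7 lists (rows) in WT (left) and Control gRNA (right); filled points passed the test. ARID5A is the point at 4.99 in WT and 4.56 in Control gRNA in the first row. It was chosen on these contrasts, so its fill is not read as a test. CEBPB is the point at 3.01 and 2.51 in the fourth row. The point at 5.41 in Control gRNA is IL6R, at 29 counts or fewer.

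The genes whose level followed ARID5A most closely over libraries were ranked by the lower of 2 Pearson correlations of log2 CPM, over the 32 libraries of experiment 1 and the 29 of experiment 2, among 12517 genes. The libraries of a group share their line and treatment, so r is given as a description. The 10 highest were MICALL1 (lower r of 0.94), GEN1, AL031587.5 (annotated just past the end of MICALL1 on the same strand), RHOQ, ATF3, WEE1, ATAD2B, EIF2AK3, GADD45A and HRK (0.91). They include ATF3, a stress-induced transcription factor gene, EIF2AK3, which encodes the stress kinase PERK, GADD45A, a growth arrest gene, and HRK, a pro-apoptotic BCL2 family member.

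The vincristine effects of these 10 genes had medians of 1.82 (WT), 0.64 (DLK KO), 0.77 (LZK KO), -0.01 (double KO), 2.15 (Control gRNA), 0.17 (ATF2 gRNA) and 0.52 (JUN gRNA), against 4.99, 0.83, 2.95, 0.04, 4.56, -0.29 and 1.52 for ARID5A. The genes were picked by their likeness to ARID5A over these same libraries. A shared order of the lines is thus built in and is no result. HRK had 2.25 ± 0.14 in DLK KO and 2.75 ± 0.13 in LZK KO, and ATF3 2.15 ± 0.13 and 2.41 ± 0.12, where ARID5A was at 0.83 and 2.95. These differences between genes were not tested. JUN gRNA vincristine replicate 2, the lowest of its group for ARID5A, was the lowest of its group for 1 of these 10 genes and the highest for 4.

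The 5 genes most like ARID5B were LDOC1 (lower r of 0.89), EPHA5, ABLIM1, EFNB1 and DAB1 (0.82), of which EPHA5, EFNB1 and DAB1 act in ephrin or reelin signalling. For ZC3H12A the highest lower r was 0.53 (THAP3), followed by FAHD2CP, ZNF774, P4HTM and ARHGAP44 (0.49), which in counts this sparse is no finding.

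Genes near ARID5A were compared in the same contrasts. Of 76 annotated within 1 Mb, 22 were tested in experiment 1, with a median log2 fold change of 0.14 in WT and a range of -0.70 to 1.11. In experiment 2, 26 were tested, with a median of 0.16 in Control gRNA and a range of -0.46 to 1.20. Of these, 7 and 12 were called, against the shares of all genes given above.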

How the data were processed

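The deposited values are whole-number counts per gene and library, in a table for each experiment. Per the file headers, reads were trimmed with cutadapt and duplicates marked. The submitters' processing notes list STAR, cutadapt 3.4, featureCounts and Subread 2.0.1 and the build GRCh38. The strand setting of the counting and the use of marked duplicates are not given in the sources used here. Levels per kilobase used the gene lengths deposited by the authors. GENCODE 29 gave symbols for 58320 of 58440 identifiers.

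Each experiment was analysed alone. After filterByExpr, 18235 and 20759 genes were scaled by TMM and tested with edgeR 4.0.16 quasi-likelihood (robust) in R 4.3.3, in 1 fit over all groups of the experiment. Tests are 2-sided. Each of 22 comparisons was adjusted over its genes by the Benjamini-Hochberg method and called under 0.05. SE is the log2 fold change over the square root of F, and 95% intervals rest on it. Simulated data were used to test the fit.

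The members, lists and tests were chosen with earlier results of these data known. Up to 6 genes per list were named, those called in WT and Control gRNA with the same sign. Likeness used genes at a mean log2 CPM of at least 1 (prior count 2). Alternatives were RLE factors, no filter, a minimum mean of 1 CPM, DESeq2 1.42.0, a replicate block, fits of only the groups compared, limma 3.58.1 (voom, weighted samples) and leaving out each library. No pair of replicates, of 104, agreed within sampling noise. Promoter sequences are from RefSeq.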

Additional observations from a re-analysis of the deposited data

Results flagged for a closer look

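Among the 42 sets of values of 1 gene in 1 group, 5 held a library far from the rest by the gap to its nearest neighbour as a share of the range of its group; chance gives about 1 in 20. For ARID5B these were Control gRNA vincristine replicate 5 (5.04 CPM, the lowest) and ATF2 gRNA vincristine replicate 4 (11.7 CPM, the lowest). The Control gRNA library was also the lowest of its group for 7 of the 10 genes most like ARID5A. For ZC3H12A they were LZK KO vincristine replicate 3 (0 CPM, the lowest, with 1 count in each other library), double KO vincristine replicate 2 (0.217 CPM, from 3 counts, the highest) and ATF2 gRNA untreated replicate 1 (1.18 CPM, from 52 counts, the highest). In groups with counts this low and often tied, the rate of 1 in 20 need not hold.

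The effect of vincristine differed between groups by a test of the difference itself in 4 results. For ARID5A these were double KO minus LZK KO (-2.91) and ATF2 gRNA minus JUN gRNA (-1.81), both on the log2 scale. For ARID5B they were ATF2 gRNA minus Control gRNA (0.62) and JUN gRNA minus Control gRNA (0.57), which share the control libraries.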

How the results depend on the processing

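Of 53 differences for the 3 genes, 33 kept their direction and their side of the threshold (without a test, their size within the replicate spread) under every alternative run, and so did 949 of 1010 values; group means by other scalings all moved by less than 1 SD. Replicate numbers did not pair the libraries (correlations of same-numbered libraries from -0.176 to 0.110 in experiment 1 and from -0.042 to 0.047 in experiment 2). With the replicate block, 50 of 53 kept their call and direction: ARID5B in WT passed (-0.24), and ARID5B in DLK KO (-0.004) and ZC3H12A in untreated ATF2 gRNA minus JUN gRNA (-0.30) changed sign, neither called. ARID5B in WT also passed with RLE factors (-0.25) and DESeq2 (-0.25), and in DLK KO was -0.005 with RLE factors and with DESeq2 and -0.008 without a filter. ARID5A in DLK KO passed with only its groups (0.84). ARID5A in DLK KO minus LZK KO passed without a filter (-2.12), with voom (-2.44), with DESeq2 (-2.14) and with only the groups compared (-2.13). With voom, untreated ARID5A in DLK KO lost its call (-0.74), and ZC3H12A in Control gRNA (1.53) and in JUN gRNA minus Control gRNA (-3.19), ARID5B in JUN gRNA (-0.28) and untreated ARID5B in ATF2 gRNA minus JUN gRNA (-0.17) passed. ZC3H12A untreated was then -0.84 in ATF2 gRNA minus Control gRNA and -1.23 against JUN gRNA. The cause of these changes was not tested.

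Leaving out 1 library at a time gave, for ARID5A, -0.094 to 0.27 in double KO, -3.39 to -2.66 in double KO minus LZK KO, -2.61 to -1.87 in DLK KO minus LZK KO, and, untreated, -1.01 to -0.53 in DLK KO and -1.68 to -0.85 in LZK KO. For ARID5B it gave -0.29 to -0.17 in WT, -0.05 to 0.029 in DLK KO, -0.016 to 0.15 in double KO minus LZK KO, -0.28 to -0.19 in JUN gRNA, and, untreated, -0.005 to 0.093 in DLK KO and 0.19 to 0.28 in ATF2 gRNA. For ZC3H12A it gave -1.51 to 0.91 in ATF2 gRNA, -0.38 to 2.03 in ATF2 gRNA minus JUN gRNA, and, untreated, -1.21 to 1.09 and -0.23 to 0.93 in ATF2 and JUN gRNA and -1.29 to 0.48 between them. Over all genes, the 12 called in double KO became 1028 with only its groups and 60 with voom, the 1190 in DLK KO 3207 and 3572, the 707 in LZK KO 271 with only its groups, the 5498 in WT 3529, the 207 of double KO minus DLK KO 3208 and 2824 (536 without a filter, 429 with DESeq2), the 167 of double KO minus LZK KO 335 with voom, the 12 of DLK KO minus LZK KO 20 and 190 (42 without a filter, 45 with DESeq2, 6 with the block), the 2262 of LZK KO minus WT 1082 and 3603, the 3543 of double KO minus WT 5925 with voom, and the 1267 in ATF2 gRNA 768 with only its groups. In experiment 1, low counts of ARID5A in untreated libraries limit the precision, and ZC3H12A was tested there without a filter only. Without 1 DLK KO library (untreated replicate 1 or 2, vincristine replicate 1, 2 or 4), 598 to 767 genes were called in DLK KO, and without untreated LZK KO replicate 2, 452 in LZK KO.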
